A study of Arabidopsis thaliana with 6 samples.

Results

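Jacalin-related lectins are plant proteins built on the fold of jacalin, the galactose-binding lectin of jackfruit seeds, and the *Arabidopsis* genes that encode them form a large family. The family was taken as every gene whose description in the deposited table contains "Jacalin-related lectin" or "Myrosinase-binding protein". Of 27372 genes, 37 met this rule, 35 by the first term and 2 by the second. Members are called *JAL* with the number in their description, apart from *MBP1* (AT1G52040), *MBP2* (AT1G52030) and *JR1* (AT3G16470, described as number 35).

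mRNA levels were measured by RNA-seq in whole seedlings of the FER-deficient mutant *fer-4* and of its wild type Col-0, with 3 biological replicates each. *FERONIA* (*FER*) encodes a receptor-like kinase of the plasma membrane, and *fer-4* was the one mutant line measured. All seedlings were 7 days old, were grown on MS-agar in long days under moderately elevated light intensity (ML) and were collected at zeitgeber time 3. The study asked which genes depend on FER in ML-grown seedlings, and all 6 libraries came from this light intensity, so an effect of light itself was not measured.

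Proteins of this family bind carbohydrates. Myrosinases are the thioglucosidases that split glucosinolates, the defence compounds of the Brassicales, and myrosinase-binding proteins are lectins found in complexes with them. Other jacalin-related lectins associate with PYK10, a beta-glucosidase stored in the ER bodies of seedlings and roots, and *JR1* was first described as a gene induced by jasmonate.

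The sequences below stand just upstream of the 5 members that carry the main result. They are 3 genes of a tandem group on chromosome 1 with large differences between the genotypes, and a pair of neighbouring paralogs on chromosome 2 that differed in response. Each run is the 250 bases before the RefSeq gene start in TAIR10.1, written 5′ to 3′ on the minus strand, the strand of the gene. Capitals mark the G-box CACGTG and the related CACATG or its reverse complement CATGTG, and positions count back from the gene start.
MBP1, chr1:19352792-19353041, minus strand: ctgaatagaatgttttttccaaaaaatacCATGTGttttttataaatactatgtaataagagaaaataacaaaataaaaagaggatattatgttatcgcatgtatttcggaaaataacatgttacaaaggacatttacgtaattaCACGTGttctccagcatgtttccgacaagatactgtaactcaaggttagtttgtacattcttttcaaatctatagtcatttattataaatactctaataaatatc
MBP2, chr1:19349089-19349338, minus strand: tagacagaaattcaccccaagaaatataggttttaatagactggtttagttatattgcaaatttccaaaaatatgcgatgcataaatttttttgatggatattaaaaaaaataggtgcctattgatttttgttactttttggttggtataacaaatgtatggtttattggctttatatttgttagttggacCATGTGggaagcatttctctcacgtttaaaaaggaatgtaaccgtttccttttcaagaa
JAL5, chr1:19336136-19336385, minus strand: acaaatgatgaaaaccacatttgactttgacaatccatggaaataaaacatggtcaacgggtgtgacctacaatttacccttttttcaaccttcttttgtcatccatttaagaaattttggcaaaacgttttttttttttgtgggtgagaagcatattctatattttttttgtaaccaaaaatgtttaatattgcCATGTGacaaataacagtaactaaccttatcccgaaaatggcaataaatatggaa
JAL23, chr2:16422159-16422408, minus strand: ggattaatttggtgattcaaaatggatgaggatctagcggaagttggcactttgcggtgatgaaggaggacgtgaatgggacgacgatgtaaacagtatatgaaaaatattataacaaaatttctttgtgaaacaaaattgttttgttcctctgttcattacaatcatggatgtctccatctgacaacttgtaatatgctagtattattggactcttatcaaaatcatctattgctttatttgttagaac
JAL22, chr2:16416846-16417095, minus strand: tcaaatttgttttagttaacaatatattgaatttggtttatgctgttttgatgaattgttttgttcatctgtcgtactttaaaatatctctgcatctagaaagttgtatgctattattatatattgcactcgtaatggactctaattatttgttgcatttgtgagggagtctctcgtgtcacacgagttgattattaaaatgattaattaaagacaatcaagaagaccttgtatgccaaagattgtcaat

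The upstream run of *MBP1* held the G-box, starting 105 bases before the gene, and was the only one of the 37 that did. *MBP1* also held CATGTG at 221 bases, *MBP2* at 59 bases and *JAL5* at 55 bases before the gene. Besides these 3 tandem neighbours, *JAL24* held the variant, which gave 4 of 37 members. Over 27443 protein-coding genes, 6.49% held CACGTG and 11.1% held CACATG or CATGTG in the same window, read on both strands. Neither *JAL23* nor *JAL22* held any of the 5 motifs searched. The *JAL23* run begins at 16422159, while the deposited position of the gene reaches only to 16421852, and the bases between were not searched. The other motifs were GCCGCC (0 of 37 members, against 1.87% of genes), TTGACC (6 of 37, against 12.2%) and TTGACT (5 of 37, against 19.1%). A match is a string of letters in a window of 250 bases and was not tested as a binding site.

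The deposited values were FPKM, in which fragments are divided by transcript length in kilobases and by the fragments mapped in the library, so levels can be compared between genes. Read counts were not used here, so the depth behind each value was unknown. The libraries summed to 910619 to 1058751 FPKM with 21824 to 22015 genes above 0, and their relative depth, read from the lowest values with Col-0 replicate 1 as 1, was 0.868 to 1.01 in *fer-4* and 0.949 to 1.09 in Col-0. *FER* (AT3G51550) was at 0.0905, 0.0270 and 0.0438 FPKM in *fer-4* and 56.5, 62.6 and 64.6 FPKM in Col-0, as the labels say. The 6 green tissue markers summed to 22910 to 27427 FPKM in *fer-4* and 35057 to 38649 FPKM in Col-0, with 3 of 6 lower in *fer-4*. The 9 root markers summed to 135 to 164 FPKM in *fer-4* and 201 to 212 FPKM in Col-0, with 5 of 9 lower. Higher and lower are used here as defined in the next paragraph, and over all genes tested 18% were higher and 16% lower. The 5 seed markers summed to 2.06 to 3.06 FPKM in *fer-4* and 0 to 0.303 FPKM in Col-0, with *SESA3* listed at 0 in all 6 libraries. *SESA1* (higher in *fer-4*) was listed at 0 in the 3 Col-0 libraries. It averaged 0.5 FPKM or more, the limit for testing, only through its level in *fer-4*, so its higher call adds no support. The 5 flower markers summed to 2.89 to 5.68 FPKM in *fer-4* and 5.35 to 6.24 FPKM in Col-0, with *SEP3* lower in *fer-4*, and *AP1*, *AP3* and *AG* were at most at 0.117 FPKM in any library. The part of these marker differences in the results on the lectins was not tested.

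Of the 37 members, 25 averaged 0.5 FPKM or more across the 6 libraries and were tested, and 12 did not. Between the genotypes, log2(FPKM + 0.1) was compared with limma over all 19839 genes past this filter, and higher or lower means an adjusted p under 0.05. Of the 25 members tested, 15 (60%) were higher in *fer-4* and 1 (4%) was lower, against 18% and 16% of all genes tested. DEGs were genes with a fold change of 2 or more and an adjusted p not above 0.01. By this rule 12 members (48%) were higher, against 6.36% of all genes, and 0 were lower, against 2.53%. The median log2 fold change was 0.83 over the members and -0.01 over all genes tested. All 3 *fer-4* libraries lay above all 3 Col-0 libraries in 16 members and below them in 1, where 26.1% and 25.1% of all genes did so. Among the 25 were *JAL12*, *JAL40* and *JAL48*, whose Col-0 mean was under 0.5 FPKM, so they passed the filter through their level in *fer-4*. The filter thus favoured a higher call for these members. *JAL12* and *JAL40* are among the 15 higher, the 12 DEGs and the 16 without overlap, and add no support to these counts. In RNA from whole seedlings, fewer cells of a type and less RNA per cell cannot be told apart.

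**Figure D1:**
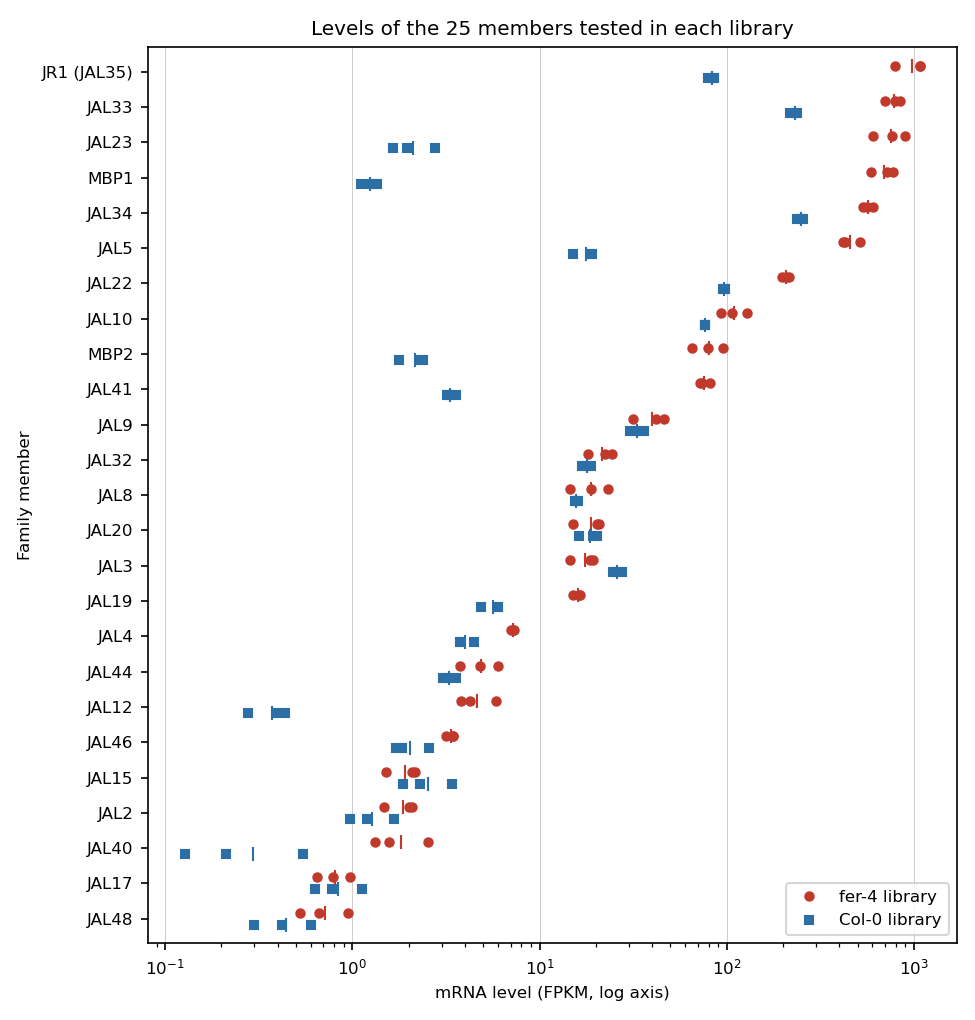
mRNA levels in FPKM (log axis) of the 25 members tested, from the highest *fer-4* mean at the top to the lowest, with *fer-4* libraries as circles, Col-0 libraries as squares and the mean of 3 libraries as a tick. *MBP1* and *JAL23* stand near 1 to 3 FPKM in Col-0 and between 586 and 897 FPKM in *fer-4*, while the circles and squares of *JAL20* overlap.

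The largest group of neighbouring members lay on chromosome 1 between 19333159 and 19402363 in TAIR10, where 8 members stood on the minus strand within 69.2 kb. Of these, 5 were higher in *fer-4*, 2 did not pass and 1 was not tested, where 18% of all genes tested were higher. *JAL12*, among the 5, passed the filter only through its level in *fer-4* and adds no support to this count. *MBP1* (19350375 to 19352782), a myrosinase-binding protein gene known from flowers, was at 715, 771 and 586 FPKM in *fer-4* and at 1.36, 1.27 and 1.11 FPKM in Col-0. The genotypes were far apart, with no library of one near the other. The log2 fold change of *MBP1* was 9.00 (standard error 0.12, limma adjusted p = 9.3e-09), or 8.26 with a pseudocount of 1.

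Its neighbour *MBP2* (19345940 to 19349088), the second myrosinase-binding protein gene, was at 79.2, 95.4 and 65.1 FPKM in *fer-4* and at 2.38, 2.32 and 1.77 FPKM in Col-0. The groups did not overlap, and *MBP2* stood above *MBP1* in each Col-0 library and below it in each *fer-4* library. The log2 fold change of *MBP2* was 5.14 (standard error 0.16, limma adjusted p = 3.6e-07). *JAL5* (19333159 to 19336115), with the longest coding sequence of the group at 2193 bases, was at 429, 513 and 419 FPKM in *fer-4* and at 19.0, 18.8 and 15.0 FPKM in Col-0. The genotypes did not overlap, and the log2 fold change of *JAL5* was 4.68 (standard error 0.12, limma adjusted p = 1.7e-07).

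*JAL12* (19396081 to 19398244) lay at the other side of the group, was low in both genotypes and passed the filter only through its level in *fer-4*. Its level was 5.88, 3.82 and 4.25 FPKM in *fer-4* and 0.397, 0.276 and 0.439 FPKM in Col-0, with a log2 fold change of 3.33 (standard error 0.23, limma adjusted p = 2.7e-05) that was 2.03 with a pseudocount of 1. The next gene, *JAL13* (19400619 to 19402363), was not tested, with 1.27, 0.484 and 0.599 FPKM in *fer-4* and 0, 0.0805 and 0.0621 FPKM in Col-0. With no filter on low values, *JAL13* had a log2 fold change of 2.53 (limma adjusted p = 0.0024). Its Col-0 values all lay under the pseudocount of 0.1, so the size of this difference depends on the pseudocount.

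Between *MBP1* and *JAL12* stood 3 short members with coding sequences of 942 to 948 bases, and their differences were small. *JAL10* was at 128, 107 and 92.6 FPKM in *fer-4* and at 76.6, 76.5 and 76.8 FPKM in Col-0. The *fer-4* libraries spread widely but all lay above Col-0, and the log2 fold change was 0.50 (standard error 0.12, limma adjusted p = 0.013). Without Col-0 replicate 1 the adjusted p of *JAL10* was 0.052. *JAL9* was at 46.4, 42.1 and 31.5 FPKM in *fer-4* and at 36, 30.4 and 32.4 FPKM in Col-0, and *JAL8* at 23.2, 18.8 and 14.5 FPKM in *fer-4* and at 15.4, 15.4 and 16.1 FPKM in Col-0. In both genes *fer-4* replicate 3 was the lowest *fer-4* library and lay within the Col-0 range or below it. Neither passed, with log2 differences of 0.26 for *JAL9* (95% interval -0.07 to 0.60, limma adjusted p = 0.20) and 0.24 for *JAL8* (-0.12 to 0.60, adjusted p = 0.27). Without *fer-4* replicate 3 both passed, at adjusted p = 0.026 for *JAL9* and 0.037 for *JAL8*. Summed over the 8 members, the group was at 1398 ± 170 FPKM in *fer-4* and 147 ± 3.89 FPKM in Col-0 (SD, n = 3 each). In the same stretch, AT1G52100, which has no description in the table and so is not a member, was at 177 ± 18.3 FPKM in *fer-4* and 89.0 ± 11.1 FPKM in Col-0 (SD, n = 3 each; log2 fold change 0.99, limma adjusted p = 4.7e-04).

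**Figure D2:**
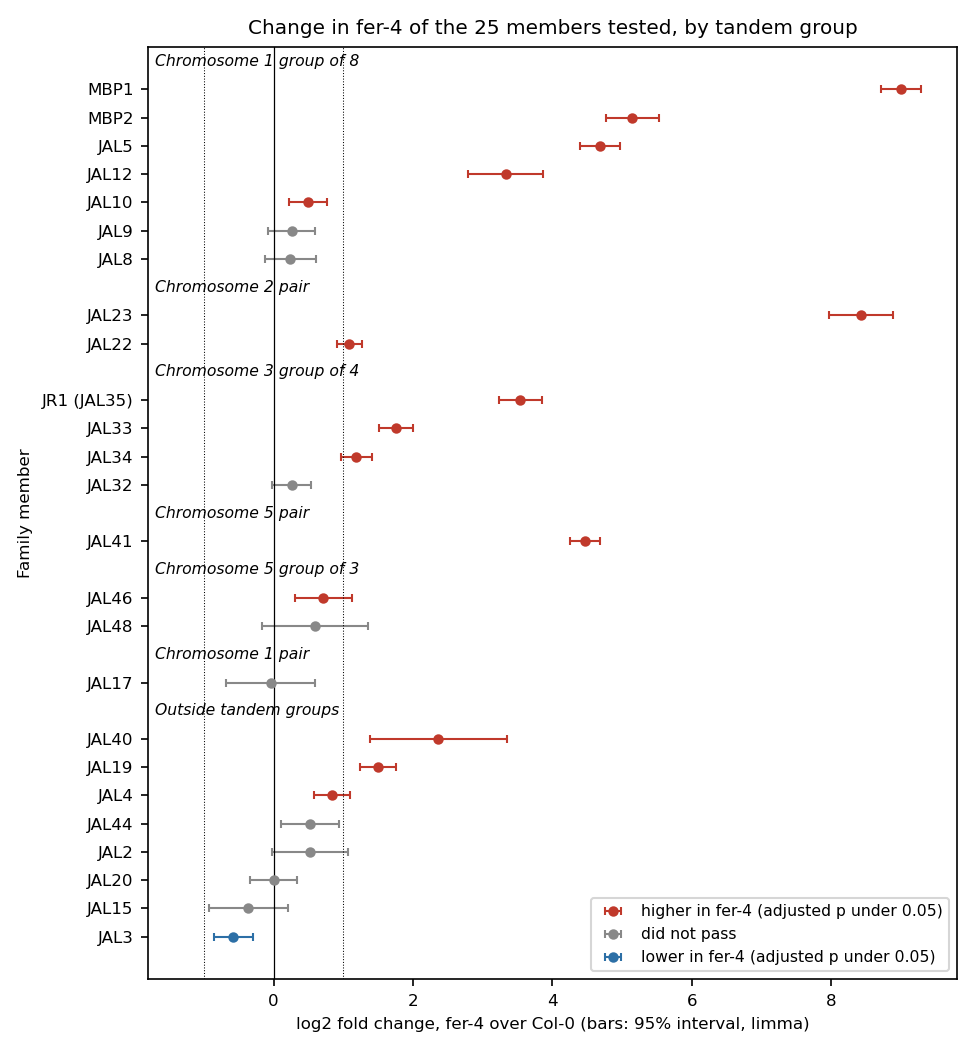
Difference in log2(FPKM + 0.1), *fer-4* minus Col-0, for the 25 members tested, with 95% intervals from limma, grouped by tandem position and coloured by call, with dotted lines at -1 and 1. Within the chromosome 1 group the points run between 0.24 for *JAL8* and 9.00 for *MBP1*, and *JAL3* is the one member called lower.

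On chromosome 2, *JAL22* and *JAL23* stood side by side on the minus strand within 7.8 kb (16414073 to 16421852), and their coding sequences were 86.9% identical. *JAL23* was at 766, 897 and 605 FPKM in *fer-4* and at 2.76, 1.65 and 1.95 FPKM in Col-0. This was the second-largest log2 fold change of the family, at 8.42 (standard error 0.20, limma adjusted p = 1.0e-07). *JAL22* was at 198, 214 and 207 FPKM in *fer-4* and at 97.3, 97.4 and 96.0 FPKM in Col-0. Its libraries were close to each other within each genotype and did not overlap between them, and its log2 fold change was 1.09 (standard error 0.08, limma adjusted p = 3.0e-05). The more abundant gene of the pair was thus *JAL23* in every *fer-4* library and *JAL22* in every Col-0 library.

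The group on chromosome 3 spanned 13.3 kb (5585944 to 5599224) and held 4 members, 3 of them higher in *fer-4*, against 18% of all genes tested. *JR1*, the jasmonate-responsive gene, was at 1075, 1079.6 and 787 FPKM in *fer-4* and at 85.4, 85.1 and 79.8 FPKM in Col-0. Replicate 3 was again the lowest *fer-4* library, and the log2 fold change was 3.54 (standard error 0.14, limma adjusted p = 9.8e-07). *JAL33* was at 796, 703 and 843 FPKM in *fer-4* and at 218, 238 and 234 FPKM in Col-0, with a log2 fold change of 1.76 (standard error 0.11, limma adjusted p = 1.2e-05). *JAL34* was at 536, 562 and 603 FPKM in *fer-4* and at 238, 254 and 254 FPKM in Col-0, with a log2 fold change of 1.19 (standard error 0.09, limma adjusted p = 5.1e-05). In both of these, replicate 3 was the highest *fer-4* library, unlike in *JR1*.

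*JAL32*, the first gene of this group, was at 24.3, 22.3 and 18.1 FPKM in *fer-4* and at 17.9, 18.9 and 16.8 FPKM in Col-0. The groups overlapped, and the log2 difference of 0.26 did not pass (95% interval -0.02 to 0.54, limma adjusted p = 0.13), although it did without *fer-4* replicate 3 (adjusted p = 0.030). Summed over its 4 members, the group was at 2350 ± 91.1 FPKM in *fer-4* and 580.0 ± 18.5 FPKM in Col-0 (SD, n = 3 each). In RefSeq the gene models of *JAL34* and *JR1* overlap by 631 bases on opposite strands. The library kit keeps strand, but how strand was used in counting is not given in the sources, so reads from the overlap may count for either gene.

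Next to this group lie further genes that the rule does not take, among them *PBP1* and *JAL31*. *PBP1* (AT3G16420), which encodes the PYK10-binding protein, was at 1987, 1705 and 1781 FPKM in *fer-4* and at 864, 866 and 905 FPKM in Col-0. *JAL31* (AT3G16430), described as a PYK10-binding protein, was at 115, 91.7 and 95.6 FPKM in *fer-4* and at 50.7, 50.9 and 46.8 FPKM in Col-0. Neither gene's groups overlapped, and the log2 fold changes were 1.05 for *PBP1* (limma adjusted p = 4.0e-04) and 1.02 for *JAL31* (adjusted p = 2.1e-04). By their identifiers, *NSP1* (AT3G16400), *NSP3* (AT3G16390) and *NSP4* (AT3G16410) also lie here. They encode specifier proteins of glucosinolate breakdown and are counted with the partner genes below.

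The pair on chromosome 5 was *JAL41* and *JAL42*, 15.9 kb from end to end, with coding sequences of 1335 bases each that were 88.1% identical. *JAL41* was at 81.8, 71.9 and 73.3 FPKM in *fer-4* and at 3.25, 3.57 and 3.20 FPKM in Col-0 (log2 fold change 4.46, standard error 0.09, limma adjusted p = 6.2e-08). *JAL42* was listed at 0 in all 6 libraries. No stretch of 50 bases of coding sequence was shared by these genes.

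Outside the tandem groups stood 11 members, of which 3 were higher in *fer-4*, 1 was lower, 4 did not pass and 3 were not tested. Over all genes tested, 18% were higher and 16% lower. *JAL40*, among those higher, passed the filter only through its level in *fer-4* and adds no support to this count. Their summed level was 70.2 ± 4.22 FPKM in *fer-4* and 62.0 ± 3.20 FPKM in Col-0 (SD, n = 3 each). *JAL19* was at 16.5, 15.1 and 16.3 FPKM in *fer-4* and at 5.99, 5.97 and 4.86 FPKM in Col-0, and its log2 fold change was 1.50 (standard error 0.11, limma adjusted p = 4.0e-05). *JAL4* was at 7.30, 7.25 and 7.06 FPKM in *fer-4* and at 3.83, 4.45 and 3.75 FPKM in Col-0, and its log2 fold change was 0.83 (standard error 0.11, limma adjusted p = 9.1e-04). Neither gene overlapped between the genotypes.

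*JAL3* was the one member lower in *fer-4*. Its level was 14.5, 19.3 and 18.5 FPKM in *fer-4* and 27.5, 24.7 and 25.4 FPKM in Col-0, so the groups did not overlap, and its log2 fold change was -0.58 (standard error 0.12, limma adjusted p = 0.0081). *JAL3* shares 175 bases with AT1G19710 on the opposite strand and *JAL19* shares 63 bases with AT1G73030, and the table gives each of these pairs a common locus. AT1G19710 had a log2 fold change of 0.32 (limma adjusted p = 0.034) and AT1G73030 of 0.21 (adjusted p = 0.13).

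The most abundant member outside the groups that did not pass was *JAL20*, at 20.8, 20.3 and 15.1 FPKM in *fer-4* and at 20.3, 19.3 and 16.3 FPKM in Col-0. The genotypes overlapped fully, and the 95% interval of the log2 difference was -0.33 to 0.33. *JAL44* was at 4.80, 6.02 and 3.74 FPKM in *fer-4* and at 3.56, 3.05 and 3.26 FPKM in Col-0. Although its groups did not overlap, *JAL44* did not pass (log2 difference 0.52, 95% interval 0.11 to 0.94, limma adjusted p = 0.055), and it passed without *fer-4* replicate 3 (adjusted p = 0.017).

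The other members were low. *JAL40* was at 2.54, 1.57 and 1.32 FPKM in *fer-4* and at 0.211, 0.548 and 0.127 FPKM in Col-0, and was higher in *fer-4* (log2 fold change 2.36, standard error 0.42, limma adjusted p = 0.0037), though its log2 fold change was 1.11 with a pseudocount of 1. *JAL46*, of a group of 3 on chromosome 5, was at 3.46, 3.46 and 3.15 FPKM in *fer-4* and at 1.70, 1.83 and 2.57 FPKM in Col-0, and was higher too (log2 fold change 0.71, limma adjusted p = 0.017). This call was lost without Col-0 replicate 1 (adjusted p = 0.071) or Col-0 replicate 2 (adjusted p = 0.065), and *JAL46* overlaps AT5G49840 by 543 bases on the opposite strand. *JAL2*, *JAL15*, *JAL17* and *JAL48* did not pass, with log2 differences of 0.52, -0.36, -0.04 and 0.59 and levels under 3.43 FPKM in every library.

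Of the 12 members not tested, *JAL24*, *JAL37*, *JAL42* and *JAL45* were listed at 0 in all 6 libraries. The other 8 were above 0 in some library. Apart from *JAL13* they reached at most 0.463 FPKM in *fer-4* and 0.407 FPKM in Col-0, and no direction can be read at these levels without depth. The pair *JAL24* and *JAL25* on chromosome 2 and the group of *JAL37*, *JAL38* and *JAL39* on chromosome 3 thus held no member above the filter. In all, 26 members lay in 8 tandem groups, defined as members at most 30 kb apart.

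Summed over the 37 members, the family was at 4979, 5181 and 4421 FPKM in *fer-4* and at 882, 908 and 894 FPKM in Col-0. This was 0.501% ± 0.0592 of the FPKM total of a library in *fer-4* and 0.0914% ± 0.00279 in Col-0 (SD, n = 3 each). The spread of the sum was wider in *fer-4*, where replicate 3 was lowest. Replicate 3 was the lowest *fer-4* library in 16 of the 25 members tested, replicate 1 in 5 and replicate 2 in 4. The median coefficient of variation of the members was 16.6% in *fer-4* and 9.87% in Col-0, against 13.0% in *fer-4* and 6.43% in Col-0 over all genes tested. No test of the sum is given, since the members were not replicates of each other.

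The makeup of the sum differed between the genotypes. In *fer-4*, 8 members had a mean of at least 100 FPKM, and in Col-0 only *JAL34* and *JAL33* did. *JR1* held 20.1% ± 2.01 of the sum in *fer-4*, where it ranked first, and 9.33% ± 0.378 in Col-0, where it ranked 4th (SD, n = 3 each). *JAL23* ranked 3rd in *fer-4* with 15.5% of the sum and 18th in Col-0 with 0.238%. *MBP1* ranked 4th in *fer-4* with 14.2% and 21st in Col-0 with 0.139%. Conversely, *JAL34* was first in Col-0 with 27.8% and 5th in *fer-4* with 11.7%, although its own level was higher in *fer-4*. The 6 most abundant members of each genotype held 87.0% of the sum in *fer-4* and 85.9% in Col-0, while the top 2 held 37.5% in *fer-4* and 53.5% in Col-0. In *fer-4* the ranges of *JR1*, *JAL33*, *JAL23* and *MBP1*, next to each other in this order, overlapped, and those of *JAL34* (536 to 603 FPKM) and *JAL5* (419 to 513 FPKM) did not. In Col-0 the lowest *JAL34* library and the highest *JAL33* library were both at 238 FPKM.

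**Figure D3:**
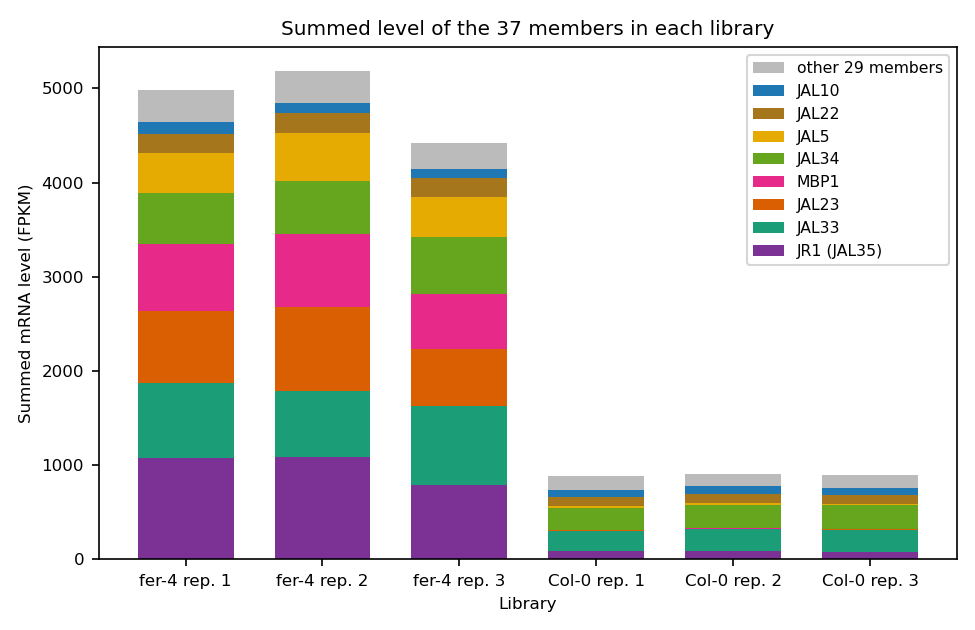
Summed FPKM of the 37 members in each library, stacked by member for the 8 most abundant in *fer-4*, with the other 29 in grey. The *fer-4* bars reach 4421 to 5181 FPKM and the Col-0 bars 882 to 908 FPKM, and *MBP1* and *JAL23* fill visible shares in *fer-4* alone.

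Ratios within a library compare close paralogs without the scaling of the libraries. There were 5 pairs of members, both of them tested, with coding sequences at least 80% identical. Each ratio was taken with the member of higher *fer-4* mean as the numerator, so a log2 ratio above 0 in *fer-4* followed from this order. Identity, here and above, was counted over aligned bases without gaps. For *MBP1* and *MBP2* it covered 1358 bases of coding sequences of 1389 and 1929 bases. The log2 ratio of *JAL23* to *JAL22* was 1.96, 2.07 and 1.55 in *fer-4* and -5.09, -5.80 and -5.55 in Col-0, a difference of 7.34. For *MBP1* to *MBP2* (81.7% identical) it was 3.17, 3.01 and 3.17 in *fer-4* and -0.77, -0.82 and -0.62 in Col-0, a difference of 3.86. In both pairs the sign of the ratio differed between the genotypes.

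For *JAL33* to *JAL32* (84.4% identical) the difference was 1.50, with log2 ratios of 5.03, 4.97 and 5.53 in *fer-4* and 3.60, 3.65 and 3.79 in Col-0. For *JAL10* to *JAL9* (86.2% identical) it was 0.23, and the groups barely separated. Each of these 4 pairs had p = 0.1 in an exact permutation test (2-sided), the smallest that 3 against 3 libraries can give, and 0.125 after adjustment over the 5 pairs. *JAL46* to *JAL48* differed by 0.12 (p = 0.6, exact permutation test) and its groups overlapped. Reads shared between paralogs could blur such ratios. The largest share of 50-base coding windows found in another member was 2.46%, in *MBP1*, and *JAL22* and *JAL23* had 1 such window in common.

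**Figure D4:**
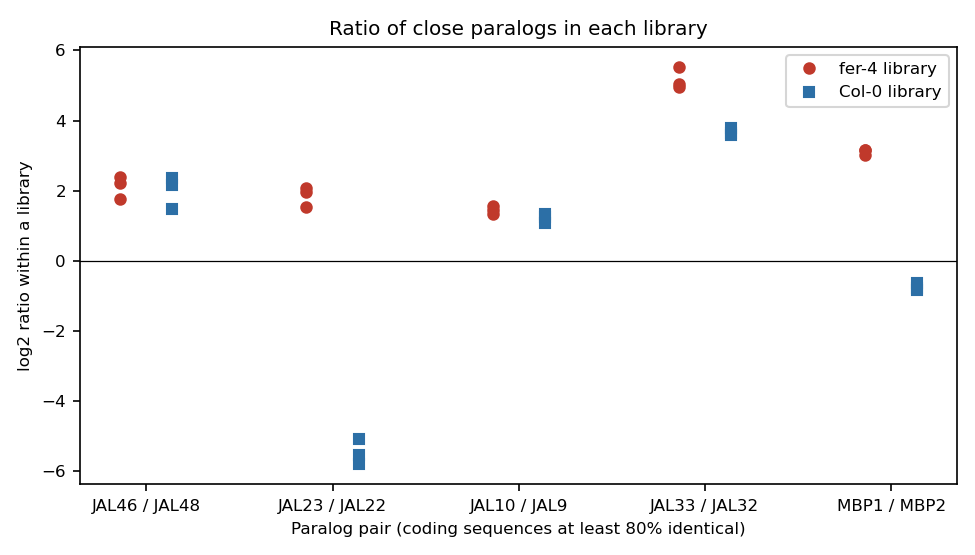
log2 ratio of FPKM between close paralogs within each library, for the 5 pairs with coding sequences at least 80% identical, with *fer-4* libraries as circles and Col-0 libraries as squares. The numerator is the member with the higher *fer-4* mean, so circles above 0 follow from this order. For *JAL23* over *JAL22* and *MBP1* over *MBP2* the circles lie above 0 and the squares below it.

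The genes called partners were 23 genes for myrosinases, ER body proteins, PYK10 and related beta-glucosidases, specifier proteins of glucosinolate breakdown and GDSL-lipase-like proteins. No protein domains were searched, so genes of this list that may carry a lectin domain were not set apart. Of the 22 tested, 18 (81.8%) were higher in *fer-4*, 0 were lower and 4 did not pass (limma), against 18% higher and 16% lower over all genes tested. Their median log2 fold change was 1.45, against -0.01 over all genes tested. The partner list was chosen with earlier results of these data known, so its shares are description only. *BGLU18*, a beta-glucosidase of inducible ER bodies, was at 5001, 4978 and 4091 FPKM in *fer-4* and at 55.5, 49.9 and 41.8 FPKM in Col-0. *TSA1*, which encodes an ER body protein and adjoins *BGLU18*, was at 648, 721 and 581 FPKM in *fer-4* and at 9.53, 9.61 and 8.71 FPKM in Col-0. The groups were far apart in both, with log2 fold changes of 6.58 for *BGLU18* (limma adjusted p = 6.2e-08) and 6.11 for *TSA1* (adjusted p = 2.0e-08). *BGLU22* (3.01) and the epithiospecifier gene *ESP* (2.26) followed. *PYK10*, the partner with the highest Col-0 level, was at 3312, 3323 and 3421 FPKM in *fer-4* and at 1854, 2096 and 2018 FPKM in Col-0 (log2 fold change 0.75, limma adjusted p = 0.0044). *TGG1*, a myrosinase gene of shoots, had a log2 fold change of 0.93 (limma adjusted p = 5.6e-04) and *TGG2* of 1.66 (adjusted p = 8.5e-06), while the root myrosinase genes *TGG4* and *TGG5* did not pass (-0.33 and -0.37, adjusted p = 0.086 and 0.088 from limma), nor did the specifier protein genes *NSP3* and *NSP5* (0.25 and 0.11). *NAI1*, the transcription factor gene for ER body formation, was at 62.1, 52.4 and 54.3 FPKM in *fer-4* and at 19.1, 20.6 and 20.7 FPKM in Col-0 (log2 fold change 1.48, limma adjusted p = 1.5e-05).

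Since *JR1* is known as a jasmonate-responsive gene, 15 genes of jasmonate synthesis and response were set beside the family. The list was chosen with earlier results of these data known, so its shares are description only. All 15 were higher in *fer-4* and were DEGs (limma), against 18% higher and 6.36% higher DEGs over all genes tested, and their median log2 fold change was 4.56, against -0.01. Of these 15, *THI2.1* and *TAT3* had Col-0 means of 0.0189 and 0.0461 FPKM and passed the filter on low values only through their level in *fer-4*, so they had to differ. The largest differences were in the thionin gene *THI2.1* (9.24), the tyrosine aminotransferase gene *TAT3* (8.26), the vegetative storage protein gene *VSP1* (7.92) and the lipoxygenase gene *LOX2* (6.56). *THI2.1* and *TAT3* were also listed at 0 in some Col-0 library, so the size of their differences depends on the pseudocount. *LOX2*, which acts early in jasmonate synthesis, was at 1480, 1865 and 1617 FPKM in *fer-4* and at 19.5, 20.1 and 13.3 FPKM in Col-0, and all 3 *fer-4* libraries were far above Col-0. The link between the 2 gene sets was not tested, since both were compared in the same 6 libraries.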

How the data were processed

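RNA from whole seedlings was made into directional libraries and sequenced on an MGISEQ-2000. According to the paper and the submitters' processing notes, the authors trimmed the reads, mapped them to TAIR10 with STAR 2.5 and made the deposited FPKM values per gene and library with Cufflinks 2.2.1. No unit stands in the files, so this one was inferred from the tool named and the range of the values. The authors' deposited comparison (group values, fold changes, p-values and q-values) was not used. The light intensity is 154 mmol m-2 s-1 in the labels, and the paper has μmol. Nothing says more of the replicates than that they are biological.

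Of 27372 genes, the 19839 that averaged 0.5 FPKM or more were tested on log2(FPKM + 0.1) with limma 3.58.1 in R 4.3.3 (2-sided, with an intensity trend) and Benjamini-Hochberg adjustment over all of them. Fold changes are on this scale and understate the change of low genes. A permutation of 3 against 3 libraries cannot go below 0.1, and limma, a parametric test that pools the spread over genes, can. The procedure was run on simulated data with independent normal noise, which does not cover library effects. Per-sample values were printed for members with a mean of at least 5 FPKM in a genotype that passed, for the 3 most abundant that did not, and for their tandem neighbours, and of the other lists the 4 with the largest fold change were named. Other genes (such as *PYK10*, *TGG1*, *TGG2*, *NAI1* and the low members) were added after their values had been seen. Members and gene lists were chosen with earlier results of these data known. Starts in the files were raised by 1 after comparison with RefSeq (TAIR10.1), in which 37 of 37 members were found by identifier, and motifs and coding sequences were read there with Python 3.11.15, pandas 2.3.3 and numpy 2.4.6. Alternatives were other pseudocounts and filters, other scalings, the replicate block and leaving out each library.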

Additional observations from a re-analysis of the deposited data

How the results depend on the processing

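Under 14 other settings, 333 of 346 values of the 25 members tested kept their direction and their side of the threshold, and 14 of the 16 members called kept the call under every setting (limma). The exceptions were *JAL10* and *JAL46*, which lost it without a Col-0 library, as given above. Direction changed only for members near 0, namely *JAL17* (0.0896 without *fer-4* replicate 1 and 0.163 without Col-0 replicate 3, in a range of -0.209 to 0.163 with 1 library left out) and *JAL20* (-0.0727 after quantile normalization, -0.081 without *fer-4* replicate 1, -0.0622 without *fer-4* replicate 2 and -0.0929 without Col-0 replicate 3, in a range of -0.0929 to 0.146). Leaving out 1 library at a time gave 13 to 19 members higher, 11 to 12 higher DEGs and 1 lower, and 19 were higher without *fer-4* replicate 3. With no filter, 33 members were tested and 16 were higher, among them *JAL13* with Col-0 values under the pseudocount. With a mean of at least 2 FPKM the median log2 fold change was 1.09 over 21 members. Of the partner genes, 1 was lower with no filter and 2 without *fer-4* replicate 1. Over all genes tested, 3569 were higher and 3170 lower, against 3064 and 4203 after quantile normalization, which put the Col-0 sum of the family at 935 FPKM. Lower genes numbered 1938 to 3708 when 1 library was left out, with 1938, 2057 and 2057 without Col-0 replicates 1, 2 and 3. The cause of these shifts was not tested. The deviations of same-numbered libraries correlated at -0.0444, 0.0426 and -0.0660, and those of other-numbered libraries at -0.0369 to 0.0730. No shared effect of the replicate number was seen, but these values cannot tell whether replicates were handled in pairs. With the replicate block, 15 members were higher, 1 was lower and 12 were higher DEGs. The unknown depth leaves the error of members under 1 FPKM to the spread of 3 libraries.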
